A study of Mus musculus with 2 samples.

Results

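The leukotriene genes were followed through single cells from colorectal polyps of WT mice and of *Clec7a*-/- mice, which lack the C-type lectin Dectin-1. The group held 8 named genes, *Alox5*, *Alox5ap*, *Lta4h*, *Ltc4s*, *Ltb4r1*, *Cysltr1*, *Pla2g7* and *Pla2g4a*, of 32285 genes in the files, and all 8 had UMIs (unique molecular identifiers, which stand for single captured transcripts) in both libraries. They were chosen by name for their place in or beside the pathway, with earlier results of these data known. The mice of both genotypes had received AOM, a colon carcinogen, and 3 cycles of 1% DSS, which injures the colon epithelium, and were 26 weeks old by the labels. Myeloid cells were sorted from polyps as CD11b+ and CD11c+ cells 16 weeks after AOM. Each genotype gave 1 library, made from 5 WT mice together and from 4 *Clec7a*-/- mice together, the latter backcrossed for 9 generations to C57BL/6J. Mice cannot be told apart within a pool, so no difference between genotypes has a replicate check, no test was run and every interval below covers counting error only.

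Leukotrienes are lipid mediators made from arachidonic acid, which cytosolic phospholipase A2 (*Pla2g4a*) frees from membranes. Arachidonate 5-lipoxygenase (*Alox5*), with its membrane partner FLAP (*Alox5ap*), turns it into leukotriene A4. Leukotriene A4 hydrolase (*Lta4h*) then gives leukotriene B4, a neutrophil attractant sensed by *Ltb4r1*, whereas leukotriene C4 synthase (*Ltc4s*) gives the cysteinyl leukotrienes sensed by *Cysltr1*. *Pla2g7* encodes the secreted enzyme that breaks down platelet-activating factor, another lipid mediator. Granulocytes, mast cells, monocytes and macrophages are textbook sources of leukotrienes.

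After the filters of the study, 2696 of 3467 barcodes of the WT library and 1999 of 3080 barcodes of the *Clec7a*-/- library were kept, holding 12283285 and 7559096 UMIs and medians of 3412.5 and 2671 UMIs per cell. The libraries shared 17 barcodes, 6 of them among kept cells. Cells fell into 16 clusters, made without the leukotriene genes and named from marker lists. The named classes were neutrophil-like cells (cluster 2, rich in granule transcripts, and cluster 3, poor in them and shallow), monocyte-like cells, Ccl24 monocyte-macrophage-like cells, macrophage-like cells (clusters 6 and 8), dendritic-cell-like and T-cell-like cells, and smaller classes. The T-cell-like class held 188 cells although the sort was for myeloid cells, and a myeloid gene's level there served as a measure of free RNA. No cluster could be named from eosinophil markers, of which *Epx*, *Ear1* and *Il5ra* had no UMI in kept cells. Levels are given as CPM, the UMIs of a gene per 1000000 UMIs summed over the cells of a class. They measure abundance within that class and were compared between classes for 1 gene at a time. The orders given take classes with at least 10 UMIs of the gene. The 9 eosinophil markers summed to 23.3 CPM in WT and 14.3 CPM in *Clec7a*-/- cells, and in cluster 3 to 180 and 34.4 CPM.

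The promoters of *Alox5* and *Lta4h* are shown because *Alox5* was high in neutrophil-like cells, where *Lta4h* was lowest, as described further on. Of the 8 genes, 6 had an entry in the RefSeq promoter table of GRCm38.p6. The 250 bases before the start of each gene are given 5' to 3' on the strand of the gene, for *Alox5* from chr6:116461179-116461428 on the minus strand and for *Lta4h* from chr10:93453146-93453395 on the plus strand. Capitals mark 3 motifs searched on both strands, which do not overlap here: the GC box with letters GGGCGG, 1 form of ETS factor site with letters GAGGAA, and the CCAAT box.
Alox5: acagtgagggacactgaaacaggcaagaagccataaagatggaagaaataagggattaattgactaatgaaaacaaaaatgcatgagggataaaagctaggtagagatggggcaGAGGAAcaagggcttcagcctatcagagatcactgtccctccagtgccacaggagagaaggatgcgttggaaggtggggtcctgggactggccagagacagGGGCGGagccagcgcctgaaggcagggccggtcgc
Lta4h: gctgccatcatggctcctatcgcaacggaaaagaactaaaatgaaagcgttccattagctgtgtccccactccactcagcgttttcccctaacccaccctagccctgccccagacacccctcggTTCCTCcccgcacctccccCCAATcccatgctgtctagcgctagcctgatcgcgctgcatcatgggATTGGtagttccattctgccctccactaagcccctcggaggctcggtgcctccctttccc
The *Alox5* promoter held 1 GC box and 1 GAGGAA, and that of *Lta4h* held 1 GAGGAA and 2 CCAAT motifs, with matches on the other strand counted. Of 32851 promoters of this length, 32.7% held a GC box, 23.3% GAGGAA and 33.8% CCAAT, so each match is common and is given as a description only.

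*Alox5*, on chromosome 6 (GRCm38 116410077 to 116461178, minus strand), was sparse and was found almost entirely in granulocyte-marked cells. The WT library held 120 of its UMIs and the *Clec7a*-/- library 31. Its level was 280 CPM in mast-cell-like cells (188 to 402, 29 UMIs in 8 of 21 cells), 38.7 CPM in neutrophil-like cells (31.0 to 47.8, 86 UMIs) and 12.3 CPM in cluster 5 (7.18 to 19.7, 17 UMIs), a cluster with neutrophil and monocyte markers together. These intervals did not overlap, and mast-cell-like cells stood 7.24-fold above neutrophil-like cells. Together the 3 groups held 87.4% of the *Alox5* UMIs and 18.7% of all UMIs. Mast-cell-like cells also had 4 of 5 basophil markers raised. The 5 summed to 3389 CPM in WT and 1104 CPM in *Clec7a*-/- cells of that class. Macrophage-like cells had 1.17 CPM and monocyte-like cells 1 UMI in 680 cells. Type 1 dendritic-cell-like cells, cluster 7 (dendritic markers, unnamed) and T-cell-like cells had none, which allows up to 1.67, 2.55 and 7.27 CPM.

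*Alox5ap*, on chromosome 5 (149264767 to 149288153, plus strand), was abundant and far more widely spread than *Alox5*. Mast-cell-like cells (1362 CPM, 1147 to 1607) and neutrophil-like cells (1360 CPM, 1312 to 1409) had the highest levels. With both libraries summed they did not differ beyond counting error. The log2 ratio of mast-cell-like to neutrophil-like cells was -0.15 (-0.45 to 0.13) in WT and 0.62 (0.08 to 1.12) in *Clec7a*-/- cells. Cluster 5 followed with 999 CPM, monocyte-like cells with 728 CPM, Ccl24 monocyte-macrophage-like cells with 337 CPM, and cluster 7 and macrophage-like cells with 282 and 278 CPM, whose intervals overlapped. Type 1 dendritic-cell-like cells had 203 CPM, and the small unnamed clusters 15 (interferon genes) and 12 (proliferation genes) 1056 and 414 CPM. Mature dendritic-cell-like cells, with 30.2 CPM (22.5 to 39.5), lay below T-cell-like cells with 65.5 CPM (43.1 to 95.3), the level taken for free RNA. *Alox5ap* was therefore above that level in monocyte-like cells and in cluster 6 of the macrophage-like class (411 CPM), but not in cluster 8 of that class (58.9 CPM). *Alox5* was at or near 0 in all of these. Cluster 8 was above mature dendritic-cell-like cells, and T-cell-like cells were shallower (median 1656.5 against 5839 UMIs in cluster 8). Whether *Alox5ap* in cluster 8 was free RNA was therefore not tested. Of 120 cells with an *Alox5* UMI, 101 also had *Alox5ap*, or 84.2% (76.4 to 90.2), against 57.6% of all cells. Within cluster 2 the same shares were 95.2% and 93.6%.

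*Lta4h*, on chromosome 10 (93453411 to 93484875, plus strand), had nearly the opposite order to that of *Alox5ap* outside mast-cell-like cells. It was lowest in neutrophil-like cells (15.8 CPM, at most 21.9), monocyte-like cells (17.9 CPM, 12.3 to 25.1) and cluster 5 (22.5 CPM), and these 3 could not be told apart. Within the neutrophil-like class it had 10.8 CPM in cluster 2 and 30.4 CPM in the shallow cluster 3, where WT cells had 54.4 CPM. Macrophage-like cells had 42.6 CPM (37.1 to 48.6), Ccl24 monocyte-macrophage-like cells 55.8 CPM, mature and type 1 dendritic-cell-like cells 56.3 and 82.0 CPM, and cluster 7 84.1 CPM. T-cell-like cells, with 89.7 CPM (63.2 to 124), and epithelial-like cells, with 142 CPM on 12 UMIs, were as high as any myeloid class, so for this gene T-cell-like cells are no measure of free RNA. In cluster 2, which held 45.7% of the *Alox5* UMIs, *Lta4h* was thus sparse.

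*Ltc4s*, on chromosome 11 (50236461 to 50238616, minus strand), was highest in macrophage-marked and type 1 dendritic-cell-like cells. Ccl24 monocyte-macrophage-like cells had 18.0 CPM, macrophage-like cells 17.4 CPM and type 1 dendritic-cell-like cells 16.2 CPM, and the intervals of all 3 overlapped. The first 2 of these classes held 29.1% and 40.5% of the 220 UMIs. The log2 ratio of Ccl24 monocyte-macrophage-like to all other cells, 0.91 (0.47 to 1.34), was between 0.35 and 0.45 under 4 alternatives, with intervals that included 0. Neutrophil-like cells had 4.95 CPM and monocyte-like cells 3 UMIs. Mast-cell-like cells, with the highest *Alox5* and *Alox5ap*, had no *Ltc4s* UMI, but at 21 cells this allows up to 29.0 CPM, above every class. No *Ltc4s* UMI fell in T-cell-like cells.

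The receptors were sparse. *Ltb4r1*, on chromosome 14 (55765962 to 55768494, plus strand), had 38 UMIs in all, of which neutrophil-like cells held 12 (5.40 CPM, 2.79 to 9.43), monocyte-like and Ccl24 monocyte-macrophage-like cells 7 each and cluster 5 held 5. Macrophage-like cells had none in 655 cells, which allows up to 0.586 CPM. T-cell-like cells had 7.27 CPM on 3 UMIs, above the level of neutrophil-like cells, so no order of classes was read for this gene. *Cysltr1*, on chromosome X (106574346 to 106603679, minus strand), had 207 UMIs and was highest in type 1 dendritic-cell-like cells (24.5 CPM, 17.8 to 33.0) and macrophage-like cells (17.0 CPM, 13.6 to 21.0), whose intervals overlapped, followed by Ccl24 monocyte-macrophage-like cells (10.1 CPM). Against all other cells the type 1 dendritic-cell-like class had a log2 ratio of 1.44, which was 0.77 when clustered at a lower resolution. Neutrophil-like cells had 1.80 CPM on 4 UMIs. T-cell-like cells had 14.5 CPM on 6 UMIs.

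Both phospholipase genes had their highest level in macrophage-like cells, with overlap for *Pla2g4a*. *Pla2g7*, on chromosome 17 (43568098 to 43612201, plus strand), had 775 CPM in macrophage-like cells (751 to 799), 703 CPM in Ccl24 monocyte-macrophage-like cells and 593 CPM in monocyte-like cells, all beyond counting error of one another. This order and its separation are for classes as a whole, with both libraries summed. Macrophage-like and Ccl24 monocyte-macrophage-like cells had 764 and 723 CPM in WT, and 797 and 663 CPM in *Clec7a*-/- cells. Within the macrophage-like class *Pla2g7* had 1117 CPM in cluster 8 but 567 CPM in cluster 6, below Ccl24 monocyte-macrophage-like cells. *Pla2g7* stood at 325 CPM in neutrophil-like cells, 230 CPM in mature and 105 CPM in type 1 dendritic-cell-like cells, with 29.1 CPM in T-cell-like cells. *Pla2g4a*, on chromosome 1 (149829618 to 149961290, minus strand), had 122 UMIs, 61 of them in macrophage-like cells (11.9 CPM, 9.11 to 15.3). Ccl24 monocyte-macrophage-like cells had 7.61 CPM and monocyte-like cells 5.95 CPM, and the interval of each overlapped that of the class above it. Neutrophil-like cells had 4 UMIs, each dendritic unit 1 UMI and T-cell-like cells none.

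**Figure D1:**
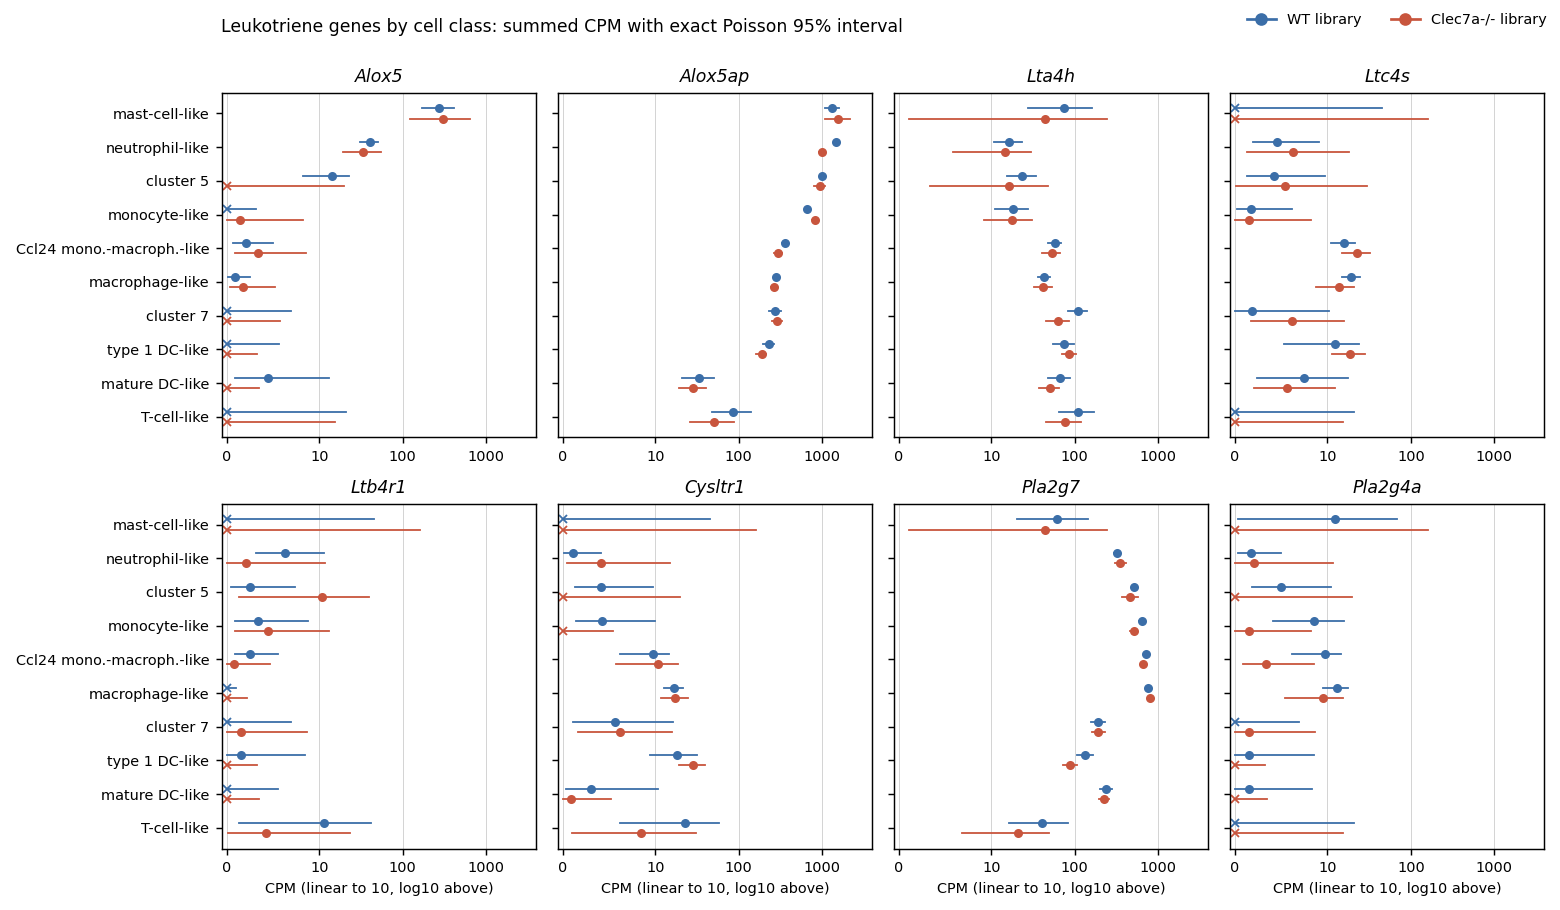
Level of each leukotriene gene (x axis, CPM of summed UMIs, linear to 10 and log10 above) in 10 cell classes or clusters (y axis) of the WT library (blue) and the Clec7a-/- library (red). Points are levels, crosses are levels of 0 and lines are exact Poisson 95% intervals. Alox5 stands above 10 CPM in both libraries only in the mast-cell-like and neutrophil-like classes, whereas Lta4h is lowest in the neutrophil-like and monocyte-like classes.

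Over 23 points, each a cluster in 1 library with at least 20 cells, the genes whose log2(CPM + 10) followed *Alox5* most closely were *Klf5*, *Mrgpra2b* and *Gm2511* (Pearson r 0.94, 0.92 and 0.92). For *Alox5ap* they were *Emilin2*, *Hnrnph2* and *Atp8b4* (0.87, 0.85 and 0.85), and for *Lta4h* *Nucks1*, *Topbp1* and *Pum3* (0.93, 0.88 and 0.87). *Ltc4s* was followed by *Rcbtb2*, *Gngt2* and *Atp6v1g1* (0.84, 0.83 and 0.83), and *Cysltr1* by *Pmf1*, *Gm2a* and *Adgrg5* (0.86, 0.85 and 0.84). *Pla2g7* was followed by *Atp6v1b2*, *Cd302* and *Dnase1l1* (0.93, 0.89 and 0.89), and *Pla2g4a* by *Atp6v1a*, *Itga9* and *Cd302* (0.88, 0.85 and 0.84). Among the leukotriene genes themselves, *Pla2g7* and *Pla2g4a* had the highest r (0.72) and *Alox5ap* and *Lta4h* the lowest (-0.59). *Alox5* and *Alox5ap* had 0.57. Mast-cell-like cells, with 16 WT and 5 *Clec7a*-/- cells, gave no point, so these values leave out the class highest in *Alox5*. The points share libraries and depth, these are the best of 6983 genes, and the values are descriptions.

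Between the libraries, the 5-lipoxygenase pair and the phospholipase that feeds it were lower in *Clec7a*-/- cells, while the downstream enzyme genes *Lta4h* and *Ltc4s* were not lower beyond counting error. *Alox5* had 9.77 CPM in WT and 4.10 CPM in *Clec7a*-/- cells (log2 ratio -1.25, -1.87 to -0.67). *Alox5ap* had 562 CPM (549 to 575) against 341 CPM, a log2 ratio of -0.72 (-0.79 to -0.65). *Pla2g4a* had 7.57 against 3.84 CPM, with -0.98 (-1.64 to -0.37), and *Pla2g7* 546 against 429 CPM, with -0.35 (-0.41 to -0.29). *Lta4h* was slightly higher, at 51.5 against 44.5 CPM, with 0.21 (0.02 to 0.40), close to the median log2 ratio of 0.14 over all genes, and with TMM scaling at 0.04. *Ltc4s* (10.8 and 11.5 CPM), *Ltb4r1* (2.28 and 1.32 CPM) and *Cysltr1* (9.61 and 11.8 CPM) differed by less than their counting error, with log2 intervals of -0.32 to 0.49, -1.99 to 0.30 and -0.12 to 0.70.

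Of the 7 leukotriene genes with at least 50 UMIs, 3 (*Alox5*, *Alox5ap* and *Pla2g4a*) were at least 1.5-fold lower in *Clec7a*-/- cells and 0 were at least 1.5-fold higher. Over all 9856 genes with at least 50 UMIs, 5.92% were lower and 12.7% were higher by that measure. The median log2 ratio was -0.35 over these 7 genes and 0.14 over all genes. The 7 genes were chosen with earlier results of these data known. *Alox5* lies 13 Mb from *Clec7a* on chromosome 6, and *Clec7a* was not analysed here.

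**Figure D2:**
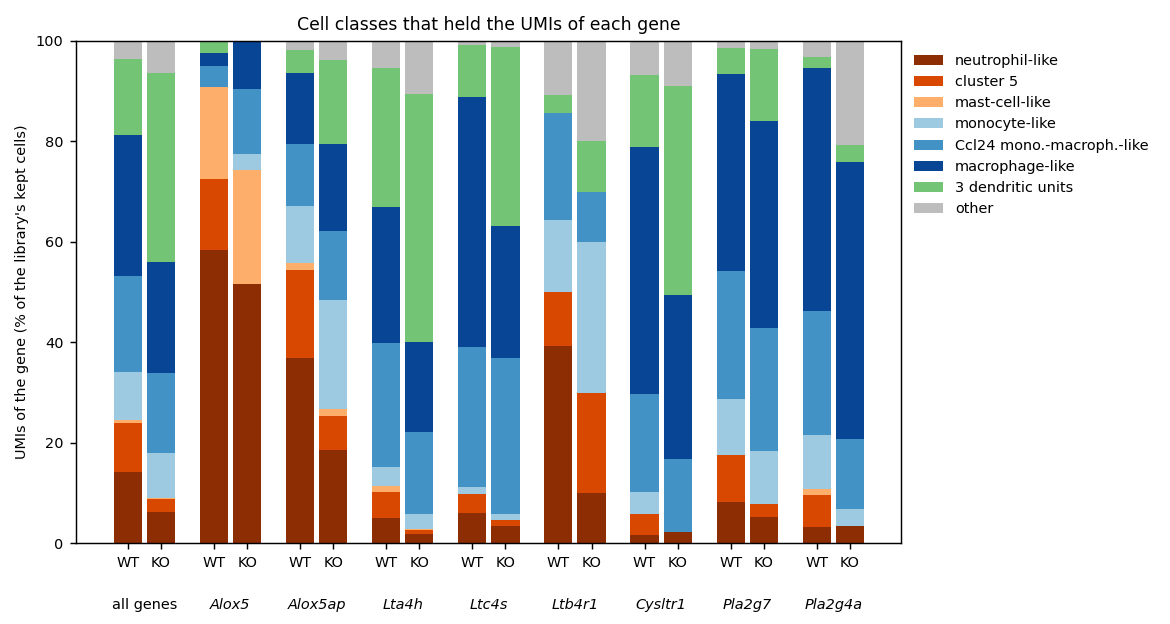
Share of the UMIs of each gene (y axis, % of the gene's UMIs in the kept cells of a library) by the class that held them, for the WT and the Clec7a-/- (KO) library, with the UMIs of all genes at the left. Neutrophil-like cells, cluster 5 and mast-cell-like cells together held 24.6% of all UMIs in WT and 9.07% in Clec7a-/- cells, and 90.8% and 74.2% of the Alox5 UMIs.

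The mix of cells differed between the libraries in the classes that hold these genes. Of the kept cells, 675 WT and 403 *Clec7a*-/- cells were neutrophil-like, and 493 of 675 were of cluster 2 in WT whereas 318 of 403 were of cluster 3 in *Clec7a*-/- mice. Cluster 5 made up 10.2% and 3.25%, mast-cell-like cells 16 and 5 cells, and type 1 dendritic-cell-like cells 3.23% and 8.40%. The 24 neutrophil markers in the files summed to 17054 CPM in WT and 7198 CPM in *Clec7a*-/- cells, with none at 0. Each class of the *Clec7a*-/- library was then weighted by its share of UMIs in the WT library. At that mix *Alox5* was 8.07 CPM (log2 ratio to WT -0.28 in place of -1.25), *Alox5ap* 488 CPM (-0.20 in place of -0.72) and *Pla2g7* was at -0.06 in place of -0.35. *Pla2g4a* remained at -0.83, where it had been -0.98, and *Lta4h* turned from 0.21 to -0.14. *Ltc4s*, *Ltb4r1* and *Cysltr1* were at 0.07, -0.09 and 0.06. Cell numbers per class also depend on the sort and on recovery, which cannot be told apart from genotype in 1 library each.

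Outside neutrophil-like cells, cluster 5 and mast-cell-like cells, *Alox5* had 11 UMIs in WT and 8 in *Clec7a*-/- cells. These are 1.19 and 1.16 CPM (log2 ratio -0.03, -1.55 to 1.42). *Pla2g4a* had 83 and 28 UMIs there, or 8.96 and 4.07 CPM (log2 ratio -1.14, -1.81 to -0.50). *Alox5ap* had 329 and 275 CPM (-0.26, -0.34 to -0.17) and *Pla2g7* 597 and 435 CPM (-0.46, -0.52 to -0.39). Summed over these 3 groups *Alox5* had 36.1 CPM in WT (109 UMIs) and 33.6 CPM in *Clec7a*-/- cells (23 UMIs). In cluster 5, 1 of the 3, it had 17 and 0 UMIs. Its summed level was thus close in the libraries inside these groups and also outside them, where the interval was wide. Their share of all UMIs was 24.6% and 9.07%.

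**Figure D3:**
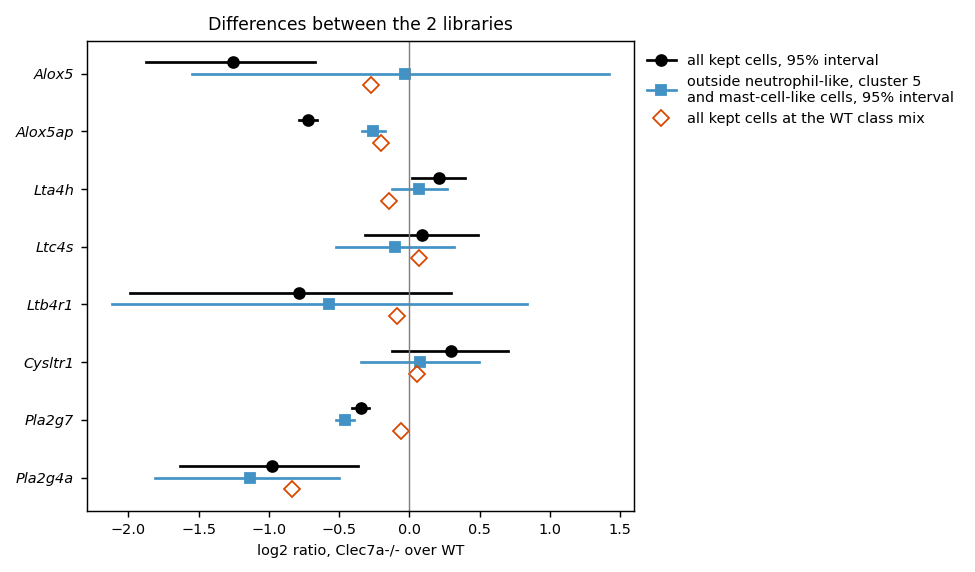
Log2 ratio of Clec7a-/- over WT (x axis) for each leukotriene gene (y axis). Circles are all kept cells and squares the cells outside the neutrophil-like, cluster 5 and mast-cell-like groups, both with exact 95% intervals for counting error, and open diamonds are all kept cells with the Clec7a-/- classes weighted as in WT. Alox5 moves from -1.25 to -0.28 at the WT mix and Pla2g4a from -0.98 to -0.83.

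Within neutrophil-like cells *Alox5* had 40.1 CPM in WT (70 UMIs) and 33.5 CPM in *Clec7a*-/- cells (16 UMIs), which was within counting error (log2 ratio -0.26, -1.14 to 0.54). In mast-cell-like cells it had 272 and 309 CPM on 22 and 7 UMIs. *Alox5ap* in neutrophil-like cells had 1458 and 1003 CPM, a log2 ratio of -0.54 (-0.68 to -0.40), but its 2 clusters differed in opposite directions. Cluster 2 held 12.3% of all UMIs in WT and 2.09% in *Clec7a*-/- cells, and cluster 3 held 1.94% and 4.23%. The class ratio thus also depends on the split between the 2 clusters, and it lay outside both of their ratios. *Alox5ap* in cluster 2 had 1607 CPM in WT and 1197 CPM in *Clec7a*-/- cells (-0.42, -0.65 to -0.21). In cluster 3 it had 519 and 907 CPM (0.80, 0.50 to 1.12). The neutrophil markers of cluster 3 moved the same way, from 30585 to 43324 CPM, and its macrophage markers the other way, from 3399 to 1810 CPM, while its median depth was 1147.5 UMIs in WT and 911 in *Clec7a*-/- cells. Their part in the *Alox5ap* difference was not tested. None of the 3 leukotriene genes with at least 50 UMIs in neutrophil-like cells was at least 1.5-fold lower, against 11.3% of all genes there. In cluster 3, 1 of 2 such leukotriene genes, *Alox5ap*, was at least 1.5-fold higher, against 20.2% of all genes.

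The 2 clusters of the macrophage-like class differed widely in *Alox5ap*. Cluster 6, led by *Mfge8*, *Olfml3* and *Igf1*, had 411 CPM, and cluster 8, led by *Adamdec1*, *Pgf* and *Mmp13*, had 58.9 CPM, a level like that of T-cell-like cells. *Pla2g7* ran the other way, with 567 CPM in cluster 6 and 1117 CPM in cluster 8, with log2 ratios of 0.98 in WT and 0.97 in *Clec7a*-/- cells. *Ltc4s* also was higher in cluster 8, at 23.8 against 13.5 CPM (log2 ratio 0.82, 0.18 to 1.45). Between genotypes, *Alox5ap* in cluster 8 had 72.1 CPM in WT and 35.7 CPM in *Clec7a*-/- cells (-1.02, -1.72 to -0.36) on 89 and 25 UMIs. T-cell-like cells had 85.7 and 50.6 CPM on only 15 and 12 UMIs, within counting error (-0.76, -1.99 to 0.43). The neutrophil markers summed to 7727 CPM in WT and 3472 CPM in *Clec7a*-/- cells of the T-cell-like class. In cluster 8 they summed to 5488 and 4488 CPM. Whether free RNA had a part in the cluster 8 difference was not tested. *Alox5ap* in cluster 6 had 402 and 430 CPM (0.10, -0.07 to 0.27). Of the 3 leukotriene genes with at least 50 UMIs in cluster 8, 1, *Alox5ap*, was at least 1.5-fold lower, against 7.44% of all genes. Of 6 in the whole macrophage-like class, 0 were, against 5.21%.

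*Pla2g7* did not differ between genotypes in macrophage-like cells (764 and 797 CPM, log2 ratio 0.06, -0.04 to 0.16) beyond counting error, nor in neutrophil-like cells (318 and 352 CPM, 0.15, -0.11 to 0.40). It was lower in *Clec7a*-/- monocyte-like cells, at 643 CPM in WT and 508 CPM (-0.34, -0.53 to -0.15), in type 1 dendritic-cell-like cells, at 133 and 88.7 CPM (-0.58, -1.01 to -0.15), and slightly in Ccl24 monocyte-macrophage-like cells, at 723 and 663 CPM (-0.12, -0.25 to -0.00224). *Alox5ap* in monocyte-like cells was higher, at 668 in WT and 831 CPM in *Clec7a*-/- cells (0.31, 0.16 to 0.47), where the neutrophil markers went the other way, from 8342 to 7445 CPM. In Ccl24 monocyte-macrophage-like cells it was lower, at 358 and 296 CPM (-0.28, -0.46 to -0.09), as were the neutrophil markers, at 9114 and 7015 CPM. Their part was not tested. With cells of 500 to 6000 genes this last ratio was -0.08 (-0.26 to 0.11), within counting error.

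*Pla2g4a* was sparse but lower in *Clec7a*-/- cells of each class with at least 10 UMIs. It had 45 and 16 UMIs in macrophage-like cells (13.1 and 9.56 CPM, log2 ratio -0.45, -1.37 to 0.40), 23 and 4 UMIs in Ccl24 monocyte-macrophage-like cells (9.78 and 3.34 CPM, -1.55, -3.54 to 0.00) and 10 and 1 UMIs in monocyte-like cells (8.55 and 1.48 CPM). Each of these was within counting error by itself. In cluster 6 it had 13.6 and 5.14 CPM (-1.40, -3.12 to -0.02), and in cluster 8 12.2 and 15.7 CPM (0.37, -0.90 to 1.59). *Lta4h* was lower in *Clec7a*-/- cells of cluster 7, at 109 CPM in WT and 63.6 CPM (-0.78, -1.39 to -0.17), and of cluster 3, at 54.4 and 12.5 CPM on 13 and 4 UMIs (-2.12, -4.20 to -0.43), and had 42.9 and 41.8 CPM in macrophage-like cells. Of 3 leukotriene genes with at least 50 UMIs in cluster 7, only *Lta4h* was at least 1.5-fold lower, against 6.4% of all genes. In cluster 3, where *Lta4h* had too few UMIs to be counted, 30.9% of all genes were at least 1.5-fold lower. *Ltc4s* had 19.2 and 13.7 CPM in macrophage-like cells and 15.7 and 22.5 CPM in Ccl24 monocyte-macrophage-like cells, both within counting error. *Cysltr1* had 16.8 and 17.3 CPM in macrophage-like cells.

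**Figure D4:**
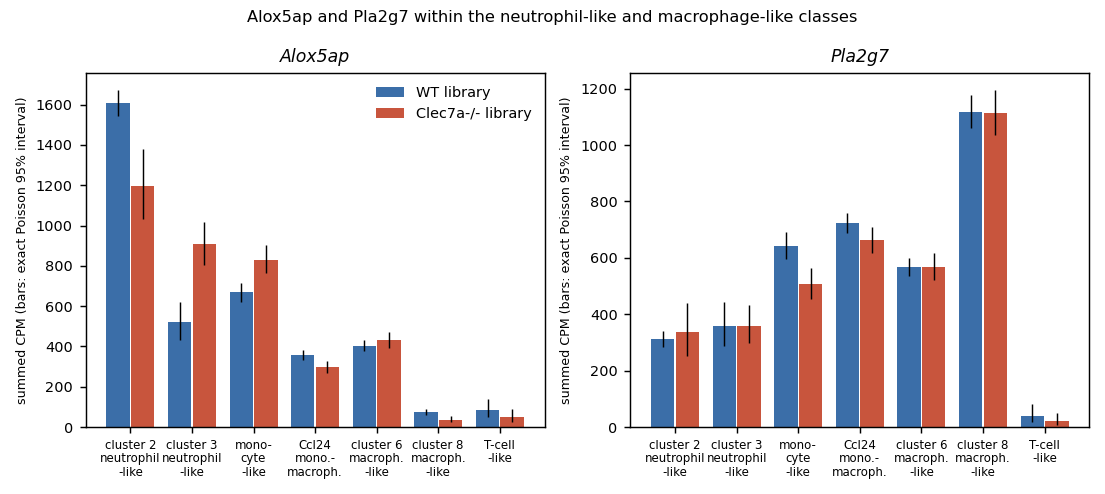
Summed CPM (y axes, from 0) of Alox5ap (left) and Pla2g7 (right) in clusters 2 and 3 of the neutrophil-like class, monocyte-like and Ccl24 monocyte-macrophage-like cells, clusters 6 and 8 of the macrophage-like class and T-cell-like cells, for the WT (blue) and Clec7a-/- (red) library. Lines are exact Poisson 95% intervals. Alox5ap was lower in Clec7a-/- cells in cluster 2 and higher in cluster 3, and Pla2g7 differed between the libraries by less than counting error in clusters 2, 3, 6 and 8.

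Shares of cells were compared after each cell was thinned to 1000 UMIs, which left out 186 WT and 307 *Clec7a*-/- cells. *Alox5ap* was then found in 39.1% of WT cells (37.2 to 41.0) and 27.8% of *Clec7a*-/- cells (25.7 to 29.98), and without thinning in 64.9% and 47.8%. The thinned share in T-cell-like cells was 7.14% and 6.59%, of 56 and 91 cells with median depths of 2284.5 and 1823 UMIs before thinning. *Pla2g7* was in 35.1% and 25.9% of thinned cells, against 1.79% and 1.10% of T-cell-like cells. In neutrophil-like cells *Alox5ap* was in 65.9% and 58.1%, but thinning left out 74 of 675 WT and 186 of 403 *Clec7a*-/- cells of this class. In monocyte-like cells it was in 42.4% and 48.6%. *Alox5* was in 26 of 2510 WT cells (1.04%) and 6 of 1692 *Clec7a*-/- cells (0.355%), which is near the level of single UMIs.

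The other genes of the pathway came from a list of 44 genes that includes the 8. Of the 36 others, 21 had at least 20 UMIs, and 9 of these were lower, 4 higher and 8 neither in *Clec7a*-/- cells beyond counting error, with a median log2 ratio of -0.23. By the same measure 13.9% of all 11461 genes with at least 20 UMIs were lower and 31.4% higher. The genes that inactivate leukotriene B4 included *Cyp4f18*, which hydroxylates it in myeloid cells, at 168 CPM in WT and 90.5 CPM in *Clec7a*-/- cells (-0.89), and *Ptgr1*, at 44.9 and 31.7 CPM (-0.50). *Fpr2*, a receptor for lipoxin A4 and formylated peptides, had 223 and 103 CPM (-1.12). *Cyp4f18* and *Fpr2* were highest in neutrophil-like cells, at 587 and 726 CPM. Within that class *Cyp4f18* was within counting error (0.13, -0.06 to 0.32) and *Fpr2* was lower (-0.38). As for *Alox5ap*, a ratio of the neutrophil-like class also depends on the split between its clusters. For *Fpr2* and the other pathway genes given here, the part of that split was not tested. *Fpr2* was also lower in monocyte-like cells (-0.54, -0.84 to -0.24) but higher in Ccl24 monocyte-macrophage-like cells (0.47). *Cyp4f18* was lower in macrophage-like cells (-0.67, -1.12 to -0.24), as were the neutrophil markers, at 4075 and 3367 CPM. Their part was not tested. *Abcc1*, which exports leukotriene C4, had 85.6 and 50.4 CPM (-0.76) and was lower also in macrophage-like (-0.87), monocyte-like (-0.79) and Ccl24 monocyte-macrophage-like cells (-0.77), each beyond counting error. In neutrophil-like cells *Abcc1* was within counting error (-0.21, -0.83 to 0.36). *Ptafr*, the receptor for platelet-activating factor, had 933 and 619 CPM (-0.59), and *Lpcat2*, which makes that factor, 182 and 144 CPM (-0.34). Neither was lower beyond counting error in neutrophil-like, monocyte-like, Ccl24 monocyte-macrophage-like or macrophage-like cells, where *Ptafr* had log2 ratios of 0.08, 0.10, 0.21 and 0.11, the third of them higher beyond counting error, and *Lpcat2* -0.10, 0.13, -0.03 and 0.06. *Ggt5*, which trims cysteinyl leukotrienes, had 7.82 and 4.89 CPM (-0.68), the lysosomal phospholipase *Pla2g15* 32.1 and 24.7 CPM (-0.37) and *Cotl1*, which binds 5-lipoxygenase, 790 and 727 CPM (-0.12). By class *Pla2g15* was at 0.05 (-0.25 to 0.34) in macrophage-like and -1.89 in Ccl24 monocyte-macrophage-like cells. *Cotl1* was lower in neutrophil-like (-0.23) and macrophage-like cells (-0.18) but higher in Ccl24 monocyte-macrophage-like cells (0.15). *Ptgr1* was lower in monocyte-like cells (-0.54) and within counting error in macrophage-like cells (0.39).

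Those higher in *Clec7a*-/- cells were *Pla2g2d*, a secreted phospholipase A2, with 31 and 90 UMIs (2.52 and 11.9 CPM, log2 ratio 2.24, 1.63 to 2.88), *Pla2g4b* (1.21), *Aloxe3* (1.02) and *Mgst3* (0.79). Macrophage-like cells held 93.4% of the *Pla2g2d* UMIs, with 8.71 CPM in WT and 49.6 CPM in *Clec7a*-/- cells (2.51, 1.89 to 3.16). *Aloxe3* had 3.19 and 14.3 CPM there. Within counting error were *Pla2g4c*, *Pla2g6*, *Mgst2*, *Abcc4*, *Cyp4f13*, *Cyp4f16*, *Pafah2* and *Lpcat1*, with log2 ratios from -0.40 to 0.17. The remaining 15 genes had under 20 UMIs, 5 of them none, among them *Oxgr1* and *Gpr17*, proposed receptors for cysteinyl leukotrienes. *Cysltr2* had 6 UMIs and *Ltb4r2* had 3.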

How the data were processed

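Cells sorted from polyps were captured with the SeekOne MM 3' kit per the methods, while the description in the labels names another platform. For each barcode and gene the deposited values are raw UMI counts, and the submitters' processing notes name Cell Ranger 2.1.1 and mm10. Counts from 3' tags were not divided by length. The 8 genes and all lists were chosen with earlier results of these data known. Clusters were named from marker lists, and values were given for all 8 genes, for pathway genes with at least 20 UMIs and for the 3 genes most like each of the 8.

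The cell filter was that of the methods (200 to 4000 genes, mitochondrial UMIs up to 5%), which describe no doublet removal. Scrublet called 0 and 2 doublets, so it was taken not to have worked, and the 5% highest scores were removed as an alternative. Counts were normalized to 10000 per cell, and 1991 variable features (2000 less pathway and sex-linked genes), 20 principal components and Louvain resolution 0.8, the smallest tried that gave at least 15 clusters, were used in Seurat 5.3.0 under R 4.3.3. Summed UMIs gave CPM with exact Poisson 95% intervals, ratios with exact conditional binomial 95% intervals and shares of cells with Clopper-Pearson intervals. Counts of 0 were given the upper limit of 3 UMIs over both libraries. These cover counting error only. Genes with at least 50 UMIs were counted as lower or higher at 1.5-fold, with 0.5 UMI added. Scripts were tested on simulated data and ran under Python 3.11.15, numpy 2.4.6, scipy 1.17.1 and pandas 2.3.3. TMM factors came from edgeR 4.0.16. Positions are from GENCODE M21, which held 32158 of 32285 identifiers. Alternatives were cell filters, TMM scaling, means over cells, clustering settings, thinning depths and count minimums.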

Additional observations from a re-analysis of the deposited data

Results flagged for a closer look

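The *Alox5ap* difference between the libraries went in opposite directions in different cells, each beyond counting error. It was lower in *Clec7a*-/- cells in neutrophil-like cells (log2 ratio -0.54), in their cluster 2 (-0.42), in Ccl24 monocyte-macrophage-like cells (-0.28) and in cluster 8 of the macrophage-like class (-1.02). The ratio of the neutrophil-like class includes cluster 2 and also depends on the split between its 2 clusters. *Alox5ap* was higher in cluster 3 of the neutrophil-like class (0.80), in monocyte-like cells (0.31) and in cluster 12, an unnamed cluster with proliferation genes (0.91, on 41 and 74 UMIs in 13 and 18 cells). The ratio in Ccl24 monocyte-macrophage-like cells was -0.08 (-0.26 to 0.11) with cells of 500 to 6000 genes. Cluster 8 lay near the T-cell-like levels of 85.7 CPM in WT and 50.6 CPM in *Clec7a*-/- cells. These rest on 15 and 12 UMIs and were within counting error of each other. The neutrophil markers in T-cell-like cells summed to 7727 CPM in WT and 3472 CPM in *Clec7a*-/- cells. The ratios of clusters 2, 3, 8 and 12 were not run under the alternatives. With 1 library per genotype the difference between these differences was not tested.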

How the results depend on the processing

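In all cells the log2 ratios of *Alox5* and *Pla2g4a* stayed within the counting error of the reported value under each alternative run. *Alox5ap* (reported -0.72) was -0.80 with up to 10% mitochondrial UMIs, -0.51 as a mean over cells and -0.89 with TMM scaling, and *Pla2g7* (-0.35) was -0.51 with TMM scaling and, in an alternative chosen after seeing the data, -0.42 with every deposited barcode. *Alox5* ranged from -1.53 to -0.73. Of the ratios within counting error, *Ltc4s* was -0.08 with TMM scaling and *Cysltr1* -0.10 as a mean over cells, where 0.09 and 0.29 were reported. At the WT mix of clusters in place of classes, also chosen after seeing the data, *Alox5ap* was -0.12 in place of -0.20. Its thinned share of cells, as a log2 ratio, was -0.63 at 2000 UMIs in place of -0.49.

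As log2 ratios of the class with the highest level among those with at least 10 UMIs to all other cells, *Pla2g7* in macrophage-like cells (0.93) was 1.13 with up to 10% mitochondrial UMIs, 1.06 without the highest Scrublet scores, 1.00 and 1.04 at resolutions 0.2 lower and 0.4 higher, 1.02 and 0.87 with 10 and 30 principal components, 1.006 with reciprocal PCA, 1.03 with pathway genes among the features, 0.73 in WT cells alone and 1.29 in *Clec7a*-/- cells alone. *Ltc4s* in Ccl24 monocyte-macrophage-like cells (0.91) was 0.40 without the highest Scrublet scores, 0.43 at the lower resolution, 0.45 with 10 components and 0.35 with pathway genes kept, and the interval then included 0. *Cysltr1* in type 1 dendritic-cell-like cells (1.44) was 0.77 at the lower resolution. In mast-cell-like cells *Alox5* (5.50) was 4.54 as a mean over cells and 6.60 in *Clec7a*-/- cells alone, and *Alox5ap* (1.53) was 1.88 with up to 10% mitochondrial UMIs, 1.24 in WT and 2.19 in *Clec7a*-/- cells alone. In *Clec7a*-/- cells alone, *Ltb4r1* in neutrophil-like cells (1.87) was 0.72 and *Pla2g4a* in macrophage-like cells (1.52) was 2.11. The single-library values were chosen after seeing the data. The causes were not tested.

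With at least 200 UMIs, 385 of 6983 genes were lower and 581 higher at 1.5-fold, in place of 583 and 1255 of 9856. The share of higher genes was smaller too, so this background depends on the UMI minimum. Of 187 alternative values within classes, 183 lay within the counting error of the reported value and 166 kept its sign. Where the reported value itself was beyond counting error, none changed sign. The 187 values cover only neutrophil-like, monocyte-like, Ccl24 monocyte-macrophage-like and macrophage-like cells, for genes with at least 10 UMIs in each library. Ratios between genotypes within single clusters and in dendritic-cell-like cells were not run under the alternatives. No paired analysis was possible because each genotype was 1 library. Depth limits *Alox5*, *Ltb4r1* and *Pla2g4a*, whose class values rest on few UMIs, and *Ltc4s* in mast-cell-like cells.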
